A study of Mus musculus with 4 samples.

Results

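The genes described here are the integrin subunits and laminin chains of the mouse heart at postnatal day 7 (P7). They were taken from the count table by symbol as every autosomal protein-coding gene of the *Itga*, *Itgb*, *Lama*, *Lamb* and *Lamc* series, which gave 37 of the 24454 genes in the table. These are 18 integrin α subunits, 8 integrin β subunits, 5 laminin α chains, 3 laminin β chains and 3 laminin γ chains. The rule itself uses symbols and annotation and no measured value. RNA-seq of whole hearts gave 2 libraries of Ctrl mice, WH7 and WH8, and a further 2, WH9 and WH10, of *miR-128*OE mice, called overexpressing libraries below. Mice of both groups were on a C57BL/6 background and carried the *miR-128*TetRE allele, in which *miR-128* stands behind a tetracycline-responsive promoter at the Rosa26 locus. The *miR-128*OE mice also carried *α-MHC*-tTA, a transactivator driven by a cardiomyocyte promoter and silenced by doxycycline, and the Ctrl mice lacked it. The study asked how forced *miR-128* expression in cardiomyocytes (CMs) changed the postnatal heart. The sources used here do not give the number of hearts behind a library, the doxycycline schedule of these animals, or whether 2 libraries of a group came from separate mice. The p-values below therefore measure the spread between libraries, which may be technical.

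Integrins are transmembrane receptors made of 1 α and 1 β subunit, and they tie the extracellular matrix to the actin cytoskeleton. The *Itgb1* product, β1, is the most versatile β subunit, and in CMs its heterodimers sit at costameres beside the Z-discs. Laminins are trimers of an α, a β and a γ chain that form the core network of basement membranes, the thin sheets of matrix around each CM and under each endothelial cell. Striated muscle is rich in laminins built on the α2 chain, vessels in those built on α4 and α5, and skin and other epithelia in one that holds α3 and β3.

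Library totals ranged from 8096870 to 14359838 counts, and a floor of 3 counts corresponded to 0.209 to 0.371 counts per 1000000 counts (CPM). The condition coincided with the sex of the mice: *Xist* counts were 11339 to 14543 in Ctrl libraries but 94 to 132 in overexpressing libraries, and *Ddx3y* had 7 to 13 against 1442 to 1768. Every integrin and laminin gene analyzed is autosomal, but an effect of sex on them cannot be told apart from one of genotype. The counts of the *miR-128* precursor genes gave only a weak check of the transgene, with *Mir128-1* at 0 counts in all 4 libraries and *Mir128-2* at 0 and 0 in Ctrl and 2 and 10 in overexpressing libraries.

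*MiR-128* acts through pairing of its seed, bases 2 to 8, with complementary stretches of a target's 3′UTR. The mature sequence of *miR-128-3p* (RefSeq, GRCm38.p6) is shown first with its seed in capitals, because the matches in integrin and laminin transcripts are read against it. Below it stand stretches of 21 bases that hold a match in members whose level was past the threshold, plus the match of *Itga5*, each read 5′ to 3′ on the transcribed strand of GRCm38 (mm10), with the matched bases in capitals.
miR-128-3p: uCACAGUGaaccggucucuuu
Itga4, chr2:79328833-79328853, plus strand: tatgttactatctCACTGTGA
Itga10, chr3:96664323-96664343, plus strand: agaggccctcttagACTGTGA
Itga9, chr9:118899685-118899705, plus strand: ctttttaaaagccCACTGTGt
Itga9, chr9:118899921-118899941, plus strand: ccctgtgtcctgcCACTGTGg
Itga9, chr9:118900870-118900890, plus strand: ggctgcccttcctCACTGTGt
Lamb3, chr1:193343752-193343772, plus strand: tcctcctgccctcCACTGTGg
Lamc1, chr1:153220198-153220218, minus strand: ctccttaagaccaCACTGTGA
Itga5, chr15:103345083-103345103, minus strand: ccttccccccatgCACTGTGA

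A match was CACTGTG, the complement of the seed, or ACTGTGA, its shorter form with an A opposite the first base of the microRNA, in the longest annotated 3′UTR. Both together form CACTGTGA, the longest match, which *Itga4*, *Lamc1* and *Itga5* carried in the stretches above. Of the 32 members that passed the filter on low counts, 11 (34.4%) carried at least 1 match, against 31.0% of the 13462 tested genes with a 3′UTR. The members with a match therefore made up about the same share as among all genes. They are taken up again after the expression values.

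Of the 37 genes, 32 had enough counts to be tested between *miR-128*OE and Ctrl hearts. The test was edgeR's quasi-likelihood F test, fitted over 14266 genes, whose p-values were adjusted after Benjamini-Hochberg and held to a threshold of 0.05. All adjusted p-values below come from it. In *miR-128*OE hearts 8 members were higher and 3 were lower. These 11 members are 34.4% of those tested, and 31.5% of all tested genes were past the threshold (16.5% higher and 15.0% lower), so the share of members that changed was near that of the whole table. Laminin chains and integrins were counted apart. Of the 9 tested laminin chains 5 were higher and 0 lower (median log2 fold change 0.31), and no further chain had an unadjusted p under 0.05. DESeq2 also called 5 higher and 0 lower, and scaling to total counts gave 4 and 0. The edgeR calls among the laminin chains also changed when WH7, WH9 or WH10 was removed. With single libraries removed, the median of the laminin chains was 0.21 to 0.37. Of the 23 tested integrin subunits 3 were higher and 3 lower (median −0.08). With single libraries removed, the median of the integrin subunits ranged from −0.14 to 0.17. Without WH9 it was 0.17, against 0.24 for the laminin chains. The median over all tested genes was −0.01. The difference between laminins and integrins was not tested. In 14 of the 32 members both overexpressing libraries lay above both Ctrl libraries, and in 9 both lay below. Among all 14266 tested genes these counts were 4811 and 4902, so groups without overlap were common throughout the table. In RNA from whole hearts, a change in the number of cells of a type cannot be told apart from a change in RNA per cell.

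**Figure D1:**
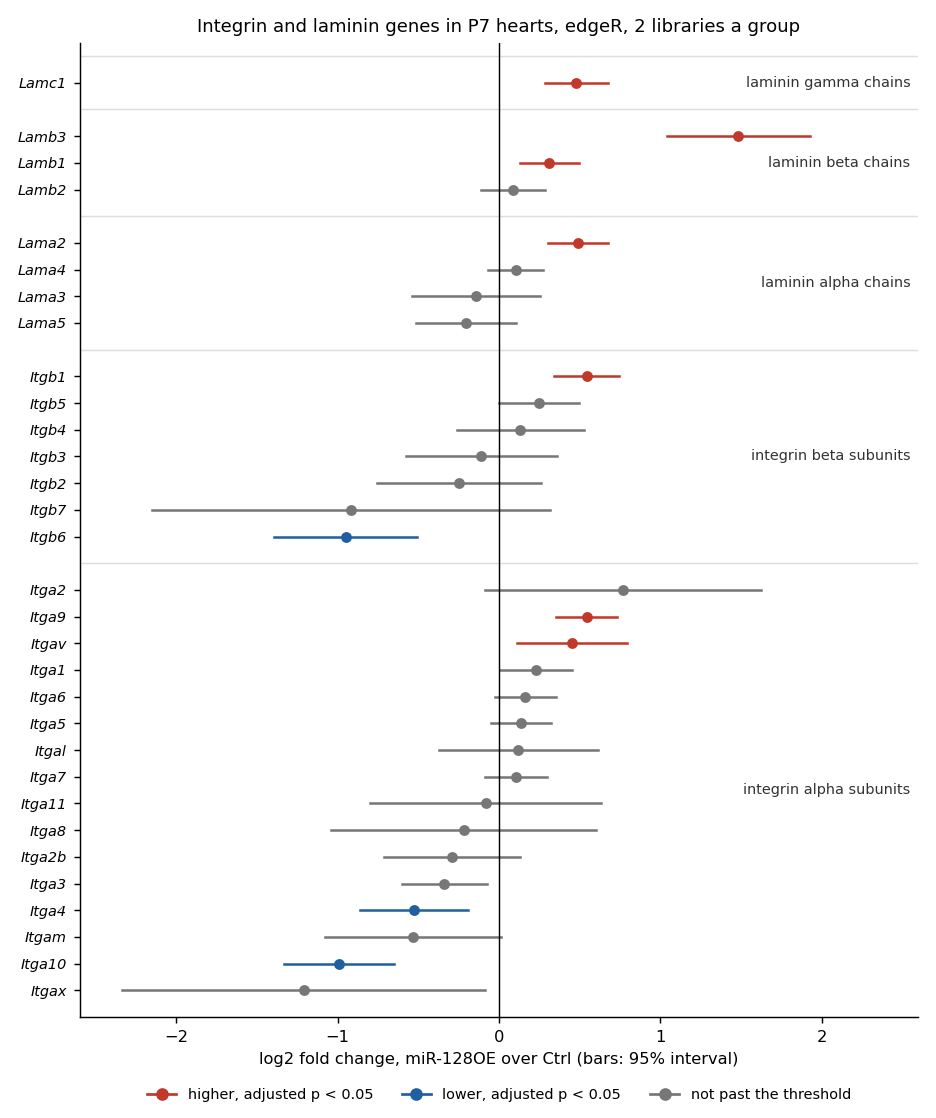
Log2 fold change of *miR-128*OE over Ctrl for tested integrin and laminin genes (x axis), ordered within each class; points are edgeR estimates from 2 libraries a group and bars are 95% intervals. The laminin β chains and *Lamc1* lie right of 0, whereas integrin α and β subunits lie on both sides, from −1.21 (*Itgax*) to 0.77 (*Itga2*).

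Values per library are given as normalized counts, that is, counts scaled by TMM factors to the mean library size. Among the laminin α chains, *Lama2* (chromosome 10, 26981285 to 27617191), the α chain of the muscle laminins, had 1475 and 1347 normalized counts in Ctrl libraries and 2044 and 1931 in overexpressing libraries. Both overexpressing libraries were above both Ctrl libraries, and the log2 fold change was 0.49 (standard error, SE, 0.08; adjusted p = 0.00225). *Lama4*, an α chain of vascular basement membranes, had 3177 and 3094 against 3332 and 3412 normalized counts. The groups did not overlap, but the log2 fold change of 0.10 had a 95% interval of −0.07 to 0.28 and was not past the threshold (adjusted p = 0.323). *Lama5*, found with *Lama4* in vessels and also in epithelia, had 1716 and 2235 in Ctrl and 1517 and 1900 in overexpressing libraries. Its groups overlapped, and the 95% interval of its log2 fold change ran from −0.51 to 0.10. With single libraries removed the estimate ranged from −0.38 to −0.0004. *Lama3*, the α chain that joins *Lamb3* in epithelia, had 132 and 144 against 138 and 112, with an interval of −0.54 to 0.25. *Lama1*, a chain of embryonic and kidney basement membranes, had 0 to 3 counts in every library and was not tested.

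Among the laminin β chains, *Lamb3* (chromosome 1, 193294353 to 193343878 of GRCm38, plus strand) rose most. It had 131 and 79.1 normalized counts in Ctrl libraries and 309 and 295 in overexpressing libraries. The fold was 2.79, or 1.48 on the log2 scale (SE 0.20, adjusted p = 0.000726). The overexpressing libraries were close to each other, and the spread lay in the Ctrl libraries, of which WH8 was the lower. *Lamb1*, the β chain of most laminins of muscle and vessels, had 3590 and 3303 against 4307 and 4252 normalized counts, with a log2 fold change of 0.31 (SE 0.08, adjusted p = 0.0179). Its groups did not overlap, although the call was lost without WH9 or without WH10 and with scaling to total counts. *Lamb2*, the β chain of neuromuscular, glomerular and vascular laminins, had 4498 and 4920 against 4789 and 5200. Its groups overlapped, and the 95% interval of its log2 fold change, −0.11 to 0.28, took in 0.

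Among the laminin γ chains, *Lamc1* (chromosome 1, 153218922 to 153332786, minus strand), the γ chain shared by most laminin trimers, had 3813 and 3559 normalized counts in Ctrl libraries and 5373 and 4914 in overexpressing libraries. Its log2 fold change was 0.48 (SE 0.09, adjusted p = 0.00322). The call was lost without WH9 (adjusted p = 0.0667). *Lamc3* had 0 to 12 counts and was not tested.

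In terms of trimers, 3 of the 4 chains of the muscle laminins (*Lama2*, *Lamb1* and *Lamc1*, but not *Lamb2*) were higher. Of all tested genes 16.5% were higher. *Lamb1* and *Lamc1* are also chains of vessel laminins, whose α chains *Lama4* and *Lama5* were not past the threshold. Of the chains known from epithelia, *Lamb3* was higher and *Lama3*, its α partner, was not past the threshold. *Itgb4*, the β subunit of the hemidesmosome receptor for epithelial laminin, had 130 and 109 against 125 and 139 normalized counts, and its groups overlapped. Of the markers of epithelial cells, *Epcam* had 4 and 6 counts in WH7 and WH8 and 9 and 10 in overexpressing libraries and *Cdh1* had 3 to 7 in all 4, both too few to be tested. *Krt18* was higher by 0.60 on the log2 scale (adjusted p = 0.0353), and *Krt8* was not past the threshold at −0.59. The summed level of the 4 epithelial markers was 13.3 to 15.4 CPM in Ctrl and 16.1 to 17.6 CPM in overexpressing libraries. Their part in the level of *Lamb3* was not tested.

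**Figure D2:**
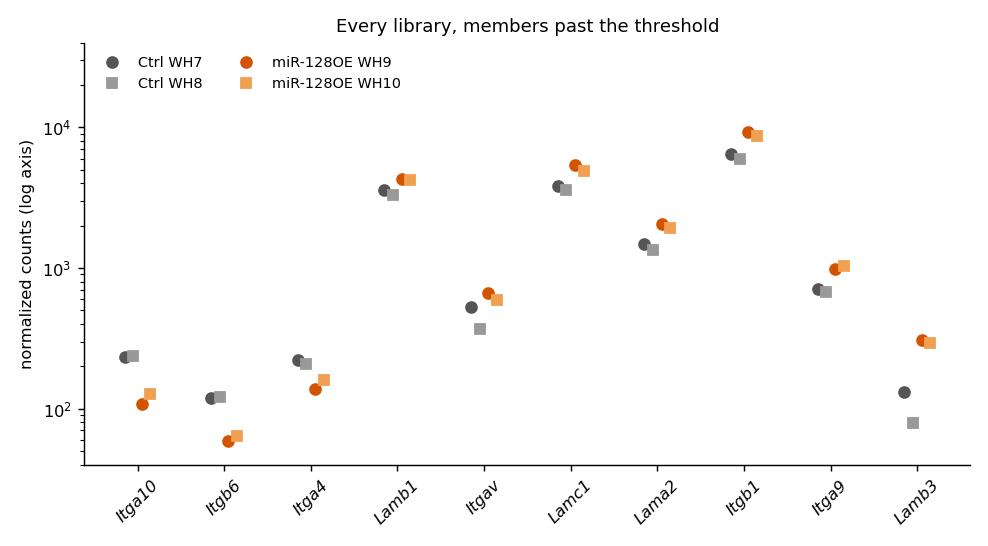
Normalized counts (y axis, log scale) of members past the threshold in each of the 4 libraries, ordered from the lowest log2 fold change (*Itga10*) on the left; Ctrl libraries are grey and overexpressing libraries orange. In each gene shown both overexpressing libraries lie on the same side of both Ctrl libraries, and the gap is widest for *Lamb3*.

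*Itgb1* (chromosome 8, 128685654 to 128733579) was the most abundant member by level per kilobase. It had 6487 and 5916 normalized counts in Ctrl libraries and 9328 and 8751 in overexpressing libraries. Both overexpressing libraries were well above both Ctrl libraries, with a fold of 1.46 and a log2 fold change of 0.54 (SE 0.09, adjusted p = 0.00209). *Itgb5*, a partner of αv in vitronectin receptors, had 1107 and 886 against 1244 and 1137 normalized counts. Its groups did not overlap, but the log2 fold change of 0.25 was not past the threshold (adjusted p = 0.115). *Itgb3*, the β subunit shared by the platelet fibrinogen receptor and a vitronectin receptor, had 198 and 163 against 133 and 203. Its overexpressing libraries stood on both sides of the Ctrl libraries.

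*Itgb6*, a gene of chromosome 2 (60598292 to 60722603) whose product pairs with αv and that is known from epithelia and from the activation of latent TGF-β, was lower. It had 119 and 120 normalized counts in Ctrl libraries and 59.4 and 63.9 in overexpressing libraries, a log2 fold change of −0.95 (SE 0.20, adjusted p = 0.00635). The 2 libraries of each group nearly coincided, although the call was lost without WH9 (adjusted p = 0.0645). *Itgb2*, the β subunit of leukocyte integrins, had 60.6 to 83.4 normalized counts over the 4 libraries and was not past the threshold (log2 fold change −0.25). *Itgb7*, also of leukocytes, had 24.8 to 30.2 in WH7, WH8 and WH9 and 5.89 in WH10, so that a single library set its log2 fold change of −0.92. *Itgb8* had 4 to 9 counts and was not tested.

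*Itga3*, *Itga6* and *Itga7* were grouped here as laminin-binding partners of β1, without a claim that no other α subunit binds laminin. None of these 3 was past the threshold. *Itga7*, the main laminin receptor subunit of striated muscle, had 1483 and 1591 normalized counts in Ctrl and 1569 and 1732 in overexpressing libraries. Its groups overlapped, and the 95% interval of its log2 fold change was −0.09 to 0.29. *Itga6*, a laminin receptor subunit of endothelium and epithelia, had 1400 and 1314 against 1589 and 1452, with an interval of −0.03 to 0.35. *Itga3*, the other subunit of this group, had 400 and 459 against 321 and 354. Both overexpressing libraries were below both Ctrl libraries, and its log2 fold change of −0.34 just missed the threshold (adjusted p = 0.0528). It was past it, as lower, in 5 of the other settings tried, among them scaling to total counts and the likelihood ratio test.

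Of the α subunits that recognize the RGD motif of fibronectin and vitronectin, *Itgav* was higher and 3 were not past the threshold. *Itgav* had 532 and 370 normalized counts in Ctrl libraries and 659 and 590 in overexpressing libraries, a log2 fold change of 0.45 (SE 0.15, adjusted p = 0.0477). The call was close to the threshold and was lost in 6 settings, including the removal of WH8 (log2 fold change 0.23), of WH9 or of WH10. *Itga5*, the fibronectin receptor subunit and the most abundant α subunit by level per kilobase, had 1984 and 2130 against 2174 and 2342 normalized counts. Its groups did not overlap, and its log2 fold change of 0.14 had a 95% interval of −0.05 to 0.32. *Itga8*, a subunit of fibroblasts and smooth muscle, had 564 and 311 against 216 and 542 normalized counts. Here 1 library of each group was high and 1 was low, and the interval of its log2 fold change ran from −1.04 to 0.60. *Itga2b*, the platelet subunit, had 110 and 136 against 101 and 97.6 (log2 fold change −0.29, adjusted p = 0.267).

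Of the 4 collagen-binding α subunits, *Itga10* (chromosome 3, 96645584 to 96664519) was lower. It had 233 and 237 normalized counts in Ctrl libraries and 108 and 128 in overexpressing libraries, so that the *miR-128*OE level was 0.503 of the Ctrl level (log2 fold change −0.99, SE 0.15, adjusted p = 0.0014). *Itga1* had 420 and 394 against 476 and 481 normalized counts. Its groups did not overlap, but its log2 fold change of 0.23 was not past the threshold (adjusted p = 0.107). The gene *Pelo* lies within *Itga1*, and the handling of strand in the counting is not given in the sources used here, so reads of the 2 could have been mixed. *Itga2* had 12.8 to 26.7 normalized counts with a log2 fold change of 0.77, and *Itga11* had 26.9 to 36.6 with −0.08, and neither was past the threshold.

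*Itga4* and *Itga9*, which form a subfamily of α subunits and share ligands such as VCAM-1 and osteopontin, went in opposite directions. *Itga9* had 710 and 674 normalized counts in Ctrl libraries and 987 and 1032 in overexpressing libraries, a log2 fold change of 0.54 (SE 0.08, adjusted p = 0.00145). *Itga4*, known from leukocytes and the epicardium, had 222 and 208 against 138 and 161, a log2 fold change of −0.53 (SE 0.15, adjusted p = 0.0238). The call for *Itga4* was lost with DESeq2, with the offset for GC content and length, and without WH7, WH9 or WH10. For both genes the groups did not overlap.

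The leukocyte α subunits were scarce. *Itgam* had 73.2 and 72.1 normalized counts in Ctrl libraries and 44.6 and 55.5 in overexpressing libraries (log2 fold change −0.53). *Itgax* had 14.6 and 12.7 against 4.95 and 6.73 (log2 fold change −1.21). For both genes the groups did not overlap, whereas those of *Itgal*, at 66.4 to 80.7, did. None of these genes was past the threshold. *Itgad* and *Itgae* had 3 to 8 counts and were not tested. None of the 7 macrophage markers and none of the 6 tested markers of other leukocytes was past the threshold, with *Cd163* at a log2 fold change of −0.78 (adjusted p = 0.0761) and *Ptprc* at −0.52 (adjusted p = 0.0632). At an unadjusted p under 0.05 these lists had 1 gene each, *Cd163* and *Ptprc*. DESeq2 called 0 genes in either list, and the likelihood ratio test called 1 lower gene in each.

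To compare levels between genes, normalized counts were divided by the length of the longest protein-coding transcript and given in CPM per kilobase. *Itgb1* made up 78.9% and 80.4% of the summed level of β subunits in Ctrl libraries and 83.9% and 83.9% in overexpressing libraries. *Itgb5* was next, at 14.8% ± 1.17 in Ctrl hearts and 12.8% ± 0.233 in overexpressing hearts (SD, n = 2 each), and every other β subunit was under 2% in each library. The log2 ratio of *Itgb1* to *Itgb5* was 2.33 and 2.52 in Ctrl libraries and 2.69 and 2.73 in overexpressing libraries. The summed level of β subunits was 183 and 164 CPM per kilobase in Ctrl and 248 and 232 in overexpressing libraries.

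The α subunits that pair with β1 did not move to the same degree. Their summed level was 137 and 136 CPM per kilobase in Ctrl libraries and 143 and 152 in overexpressing libraries. In Ctrl libraries *Itga5* held 29.2% of this sum, *Itga7* 23.8% and *Itga6* 19.6%, and in overexpressing libraries these shares were 29.6%, 23.6% and 20.4%. With the summed length of all annotated exons they were 37.4%, 17.0% and 13.5% in Ctrl libraries, so they depend on the length chosen. For *Itga5* and *Itga7*, and for *Itga6*, the libraries of the 2 groups overlapped. The share of *Itga9* was 6.13% ± 0.160 in Ctrl hearts and 8.28% ± 0.119 in overexpressing hearts (SD, n = 2 each), and that of *Itga10* was 2.90% ± 0.0664 against 1.34% ± 0.0992 (SD, n = 2 each). For both the libraries of the groups lay apart. The log2 ratio of *Itga3* to *Itga6* was −1.98 and −1.69 in Ctrl libraries and −2.48 and −2.21 in overexpressing libraries, a difference of −0.51 with no overlap.

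Among laminin α chains *Lama4* held 60.9% of the summed level in Ctrl and 60.2% in overexpressing libraries. *Lama2* held 18.2% and 16.3% in Ctrl libraries and 23.4% and 21.3% in overexpressing libraries, while *Lama5* held 17.9% and 22.8% against 14.6% and 17.7%. The groups were apart for *Lama2*, and for *Lama5* only by a narrow gap. With the summed length of all annotated exons in place of the longest transcript, *Lama4* held 48.8% and *Lama5* 32.5% in Ctrl libraries, so these shares depend on the length chosen. The log2 ratio of *Lama2* to *Lama4* was −1.78 and −1.87 in Ctrl libraries and −1.37 and −1.49 in overexpressing libraries, a difference of 0.39 that no choice of length alters. Among β chains the share of *Lamb3* was 1.86% and 1.11% in Ctrl and 3.83% and 3.53% in overexpressing libraries. *Lamb2* and *Lamb1* made up the rest of the β chains in both groups.

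**Figure D3:**
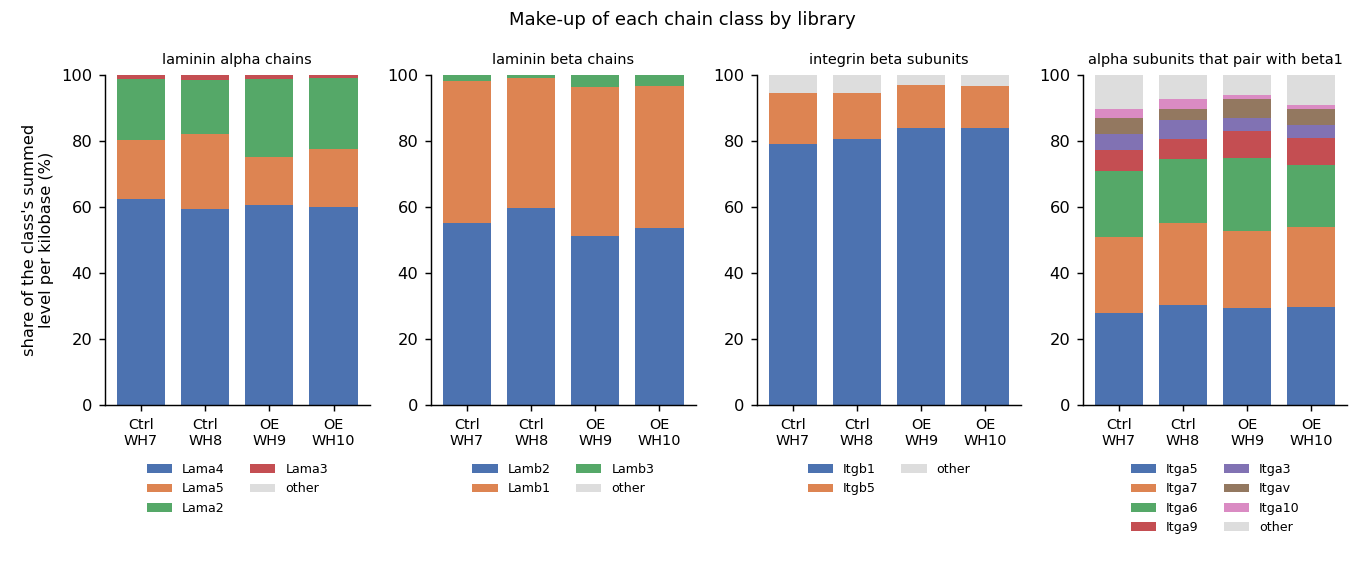
Share of each class's summed level per kilobase (y axis, percent) in the 4 libraries (x axis), for laminin α chains, laminin β chains, integrin β subunits and the α subunits that pair with β1. *Lama4*, *Lamb2* and *Itgb1* are the main chains in every library, and *Lama2* and *Lamb3* take larger shares in both overexpressing libraries than in either Ctrl library.

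In all, 8 ratios between members were computed, and 6 of them did not overlap between groups. The smallest two-sided p that an exact permutation test of 2 against 2 libraries can give is 0.333, so none of them could pass the threshold. The log2 ratio of *Lamb2* to *Lamb1* differed by −0.23, that of *Itgb1* to *Itgb5* by 0.28 and that of *Itgb5* to *Itgb3* by 0.40, of which the last rested on WH9 alone. The ratio of *Itga7* to *Itga5* differed by −0.03 without overlap. The ratios of *Lama5* to *Lama4* and of *Itga6* to *Itga5* overlapped between the groups.

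The matches to the *miR-128* seed fell on members of either direction. Of the 3 lower members *Itga4* and *Itga10* carried a match and *Itgb6* did not. Of the 8 higher members 4 carried at least 1 match, among them *Itga9* with 3, *Lamb3* and *Lamc1*. The other 5 tested members with a match, *Itga1*, *Itga2*, *Itga3*, *Itga5* and *Itga11*, were not past the threshold, although *Itga1* carried 6 matches and *Itga5* the longest form. The median log2 fold change was 0.23 for the 11 members with a match and 0.09 for the 21 without. A match is a stretch of letters and not a measured binding site, and all 6 matches of *Itga1* rest on a 3′UTR that extends past the end of the RefSeq gene.

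The genes that act with integrins and laminins were then listed by role. Earlier results of these data were known when the lists were made. As a baseline for each list, 16.5% of all tested genes were higher and 15.0% were lower. The median change over all tested genes was −0.01 on the log2 scale. Whether a list departed from this baseline was not tested. In the adhesion complex, 10 of 27 tested genes were higher and 3 lower (median log2 fold change 0.14). *Vcl*, vinculin, which anchors actin at costameres, had 1870 and 1706 normalized counts in Ctrl and 2901 and 2978 in overexpressing libraries (log2 fold change 0.72, adjusted p = 0.000338). *Vasp*, an actin regulator, and *Parvb*, β-parvin of the complex with integrin-linked kinase, were higher by 0.54 and 0.56. *Itgb1bp1*, a protein that binds the β1 tail, was higher by 0.34 (adjusted p = 0.0407). The talins, which switch integrins on, were not past the threshold, with *Tln1* at 0.00 and *Tln2* at −0.09, and neither was *Ilk*, integrin-linked kinase, at 0.15. The 3 lower genes, named after their values were seen, were *Tns3* (−0.54), *Src* (−0.56) and *Pxn* (−0.33). With single libraries removed the list had 11 higher and 6 lower genes (without WH7), 7 and 3 (WH8), 5 and 0 (WH9) or 6 and 1 (WH10), and its median stayed between 0.12 and 0.16.

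Among the basement membrane partners of laminins, 6 of 13 tested genes were higher and 1 was lower (median log2 fold change 0.31). *Nid2* and *Nid1*, nidogens, which link laminin to collagen IV, were higher by 0.63 and 0.41. *Col4a1*, a chain of collagen IV, had 16960 and 15608 normalized counts in Ctrl libraries and 22894 and 21792 in overexpressing libraries (log2 fold change 0.46, adjusted p = 0.00526). *Col15a1* was higher by 0.44. *Pxdn*, the peroxidasin that cross-links collagen IV, was the lower gene (−0.33) and was named after its value was seen. The count depended on the libraries used, with 8 higher and 2 lower without WH7, 5 and 2 without WH8, 1 and 0 without WH9, and 3 and 0 without WH10. The median was 0.21 to 0.36 in these fits.

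Of 6 other laminin receptors 2 were higher and 1 was lower. Without WH7 5 were higher, without WH9 or WH10 0 were lower, and without WH8 the median log2 fold change was 0.08 in place of 0.35. *Dag1*, dystroglycan, the non-integrin laminin receptor of muscle, had 1776 and 1555 normalized counts in Ctrl and 3103 and 2859 in overexpressing libraries, a log2 fold change of 0.84 (SE 0.09, adjusted p = 0.000279). *Bcam*, which binds the α5 chain, was higher by 0.53, and *Rpsa*, which is both a laminin-binding protein and a ribosomal protein, was lower by a log2 fold change of −0.39. Among 16 tested ligands of integrins 2 were higher and 0 were lower by edgeR and by DESeq2, *Adam15* by 0.58 and *Icam2* by 0.30. *Fn1*, fibronectin, had 6711 and 4914 against 7211 and 7483 normalized counts (log2 fold change 0.34, adjusted p = 0.0798), and *Icam1* was not past the threshold at 0.33. This list had 5 genes with an unadjusted p under 0.05, and the removal of single libraries changed the count: 8 were higher and 0 lower without WH7, 3 and 3 without WH8, 1 and 0 without WH9, and 1 and 1 without WH10. *Fgg* was at 0 in all libraries.

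**Figure D4:**
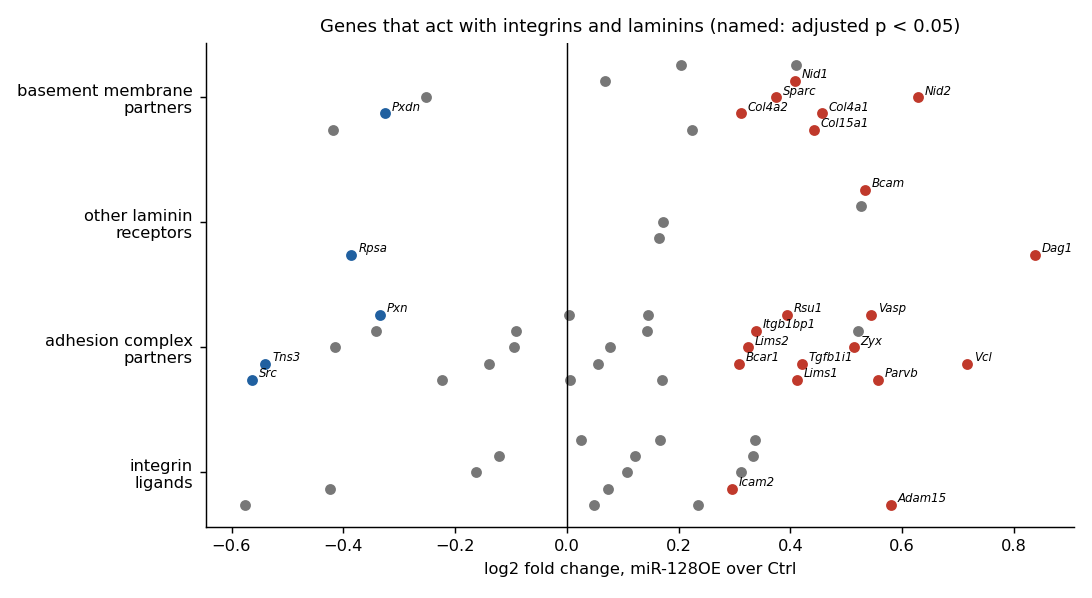
Log2 fold change of *miR-128*OE over Ctrl (x axis) for genes that act with integrins and laminins, in 4 lists by role; each point is a gene, red and blue points are higher and lower genes at an adjusted p under 0.05, and these are named. *Dag1* (0.84) and *Vcl* (0.72) lie farthest to the right.

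The values of cell type markers stand beside these results because integrin and laminin chains come from several cell types. Their counts are read beside those of all tested genes, of which 16.5% were higher and 15.0% lower. Of the 8 cardiomyocyte markers 3 were higher and 2 were lower, with *Actn2* at 0.76, *Pln* at 0.59 and *Ryr2* at −0.40, and their summed level was 38614 and 40493 CPM in Ctrl and 45508 and 44743 CPM in overexpressing libraries. Of the 8 endothelial markers 2 were higher and 2 lower (*Pecam1* at 0.42, *Egfl7* at −0.36 and *Emcn* at −0.29), with a sum of 1974 and 1977 CPM against 2064 and 1972 CPM. With scaling to total counts 1 endothelial marker was higher and 4 were lower. Fewer cardiomyocyte and endothelial markers were past the threshold without WH9 or without WH10. Of the 8 fibroblast markers 2 were higher, *Gsn* (0.50) and *Lum* (0.63). Without WH7 all 8 were higher, without WH8 2 were higher and 2 lower, and without WH9 or WH10 none was past the threshold. The median log2 fold change of this list was 0.27 with all libraries and 0.04 without WH8. Their sum was 6403 CPM in WH7 and 4139 CPM in WH8, against 5350 and 5798 CPM in overexpressing libraries. WH8 was also the lowest library for *Itgav*, *Itgb5*, *Fn1* and *Lamb3*. It was likewise the lowest for *Itgb1*, *Itga9*, *Lama2*, *Lamb1* and *Lamc1*, and for *Vcl*, *Dag1*, *Nid1* and *Col4a1*. Of the 8 smooth muscle and pericyte markers *Acta2* (0.94) and *Rgs5* (0.29) were higher and *Myh11* (−0.64) was lower. Of the 6 Schwann cell markers 1 was higher and 1 was lower, and *Cdh19* was not past the threshold (−1.27). None of the 6 tested platelet markers was past the threshold, by edgeR or by DESeq2, and 0 of them had an unadjusted p under 0.05. This platelet list holds *Itga2b*, which is itself an integrin member described above. None of the 6 epicardial markers was past the threshold by either tool, with 2 at an unadjusted p under 0.05, *Msln* (−0.90) and *Wt1* (0.32). The likelihood ratio test and scaling to total counts each called 1 of them lower, and the fit without a filter 3. The median log2 fold change of the epicardial markers was −0.70 with all libraries, 0.40 without WH7 and −1.17 without WH8. Their summed level was 127 CPM in WH7 and 56.8 to 76.7 CPM in the other libraries. The part of these cell types in the integrin and laminin levels was not tested.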

How the data were processed

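RNA-seq of P7 mouse hearts was analyzed, with 2 Ctrl and 2 *miR-128*OE libraries grouped by their titles. The authors aligned reads to mm10 with TopHat and counted them on known genes. They deposited raw counts per Entrez gene and library. Gene models, strand handling and the rule for shared reads are not given in the sources used here, so overlapping genes are uncertain. Library totals were 8096870 to 14359838 counts. A floor of 3 counts is given for scale and did not decide which genes were tested. It reflects counting error alone because amplified reads without molecular identifiers need not be separate molecules.

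These counts were fitted in edgeR 4.0.16 (R 4.3.3) by its quasi-likelihood test, after the default filterByExpr filter and TMM scaling. Adjustment was by Benjamini-Hochberg over 14266 genes, at a threshold of 0.05. Symbols were matched for 24374 of 24454 identifiers (RefSeq, GRCm38.p6). On simulated counts for 14093 genes, 197 of them changed, the test recovered 89.8% of changes of log2 size 1 and 100% of size 2. False calls were 5.08%. The simulation gave all genes the same spread and held no smaller changes, so these rates need not hold for the members. Transcript lengths and 3′UTRs came from GENCODE M21. The libraries of a group differed by more than sampling noise (chi-square per degree of freedom 12.2 in Ctrl and 5.76 in *miR-128*OE). Ratios were compared by exact permutation (scipy 1.17.1).

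Named genes are every member past the threshold, the chains of the main heart heterodimers and trimers, and in each list the 3 genes with the smallest p plus those described for their role. Some genes under this rule are counted but not reported here by name. The members and lists were chosen with earlier results of these data known. Alternatives were other size factors, filters, the likelihood ratio and DESeq2 1.42.0 tests, autosomal genes alone, a fold of at least 1.5, another site definition and the removal of each library. A GC and length correction was added after seeing the data.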

Additional observations from a re-analysis of the deposited data

How the results depend on the processing

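Over the other settings, the number of members called higher was 8 in the main test and moved to 2 when a fold of at least 1.5 was also asked for, *Lamb3* among them. Leaving out 1 library at a time, where the lone library of a group was assumed to vary like the others, gave 5 to 9 higher and 1 to 4 lower members. The lowest counts, 5 and 1, came without *miR-128*OE replicate 1 (WH9), where calls over all genes also went from 2347 higher and 2143 lower to 897 and 667. *Lamb3*, *Lama2*, *Itgb1*, *Itga9* and *Itga10* were called in the same direction in each of the 13 other fits. Signs changed for members that were not called. Over the libraries left out, the log2 fold change of *Itgb3* ranged from −0.44 to 0.17 (0.06 without Ctrl replicate 1 and 0.17 without *miR-128*OE replicate 1), that of *Itga8* from −1.02 to 0.31 (0.31 and 0.30 in those fits), that of *Itga11* from −0.26 to 0.18, and that of *Lama3* from −0.28 to 0.018. *Lama3* was 0.091 with the GC and length offset, which was chosen after seeing the data, and *Lamb2* was −0.013 with total counts. The difference in the ratio of *Itga6* to *Itga5* ranged from −0.090 to 0.15 over the libraries left out, with −0.068 without Ctrl replicate 2. Scaling to total counts gave all genes a median of −0.11 in place of −0.01, and 35.3% of the called genes were then higher in place of 52.3%. Under it *Itgav* and *Lamb1* were not called, and 6 members were higher and 4 lower. With matches of 7 or 8 bases to the full seed alone, 9 members carried one (28.1%, against 22.8% of tested genes). The cause of these changes was not tested. No paired analysis was possible because the labels give the groups no shared replicate numbers. With 2 libraries a group, members under about 30 normalized counts could be compared only coarsely.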
